A study of Mus musculus with 12 samples.

Results

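The genes described here encode 10 enzymes of the methionine cycle, of transsulfuration and of taurine and choline metabolism in mouse liver: Mat1a, Mat2a, Gnmt, Bhmt, Ahcy, Cbs, Cth, Pemt, Cdo1 and Csad. They were chosen by name, as a pathway, out of the 36528 gene IDs of the count table, and all 10 passed the filter on low counts that left 16032 genes to test. RNA was sequenced from whole liver of 12 mice, 6 that received carbon tetrachloride (CCl4) and 6 that received corn oil, the vehicle. Both were given into the peritoneum, with 3 injections in each of 6 weeks, and the labels state no strain, sex, age or dose. CCl4 is a solvent that the P450 enzymes of hepatocytes turn into a toxic radical, and its repeated use is a standard model of liver fibrosis, so the comparison addresses how the chronically injured liver differs from the oil-injected liver.

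Hepatocytes handle most of the body's methionine. MAT enzymes join methionine to ATP to make S-adenosylmethionine, the methyl donor of the cell, methyltransferases such as GNMT and PEMT spend it, and AHCY splits the S-adenosylhomocysteine that remains into adenosine and homocysteine. Homocysteine is either methylated back to methionine, in liver largely by BHMT with betaine made from choline, or passed by CBS and CTH to cysteine, which feeds glutathione and, through CDO1 and CSAD, taurine. PEMT links the cycle to choline by methylating phosphatidylethanolamine to phosphatidylcholine.

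Total counts ran from 53602695 to 69203292 in the CCl4 libraries and from 43027778 to 70375852 in the oil libraries, and the least counted value among the 10 genes was 733 reads, for Bhmt in CCl4 replicate 5. Levels are given as CPM, read counts scaled to a common library total after TMM normalisation. The libraries differed in how counts depended on transcript length. The slope of a library's log2 CPM on log2 transcript length, relative to the mean of all 12 libraries, was 0.11, -0.25, -0.02, -0.20, 0.16 and -0.38 in CCl4 replicates 1 to 6, and 0.17, 0.05, 0.16, 0.10, -0.14 and 0.25 in oil replicates 1 to 6. A negative slope means relatively more counts on short transcripts. CCl4 replicates 2, 4 and 6 and oil replicate 5 lay below -0.1, so results that rest on them are also given without these 4 libraries.

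Most of these transcripts were lower after CCl4. Of the 10 genes 7 fell, none rose and 3 (Cbs, Mat2a and Pemt) did not pass an adjusted p of 0.05 in edgeR's quasi-likelihood test, where 18.4% of all tested genes fell, 20.6% rose and 39.0% passed in either direction. All 6 CCl4 livers lay below all 6 oil livers for the same 7 genes, against 8.03% of all tested genes. An adjusted p under 0.05 with an estimated fall of at least 2-fold held for 6 of the 10, against 6.01% of all tested genes. The test was against no change, and no test against a 2-fold fall was run. The median log2 fold change of the 10 genes was -1.20, and that of all tested genes was 0.01. Under every alternative run, 7 or 8 of the 10 fell and none rose. In whole liver, fewer cells of a type and less RNA per cell cannot be told apart.

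**Figure D1:**
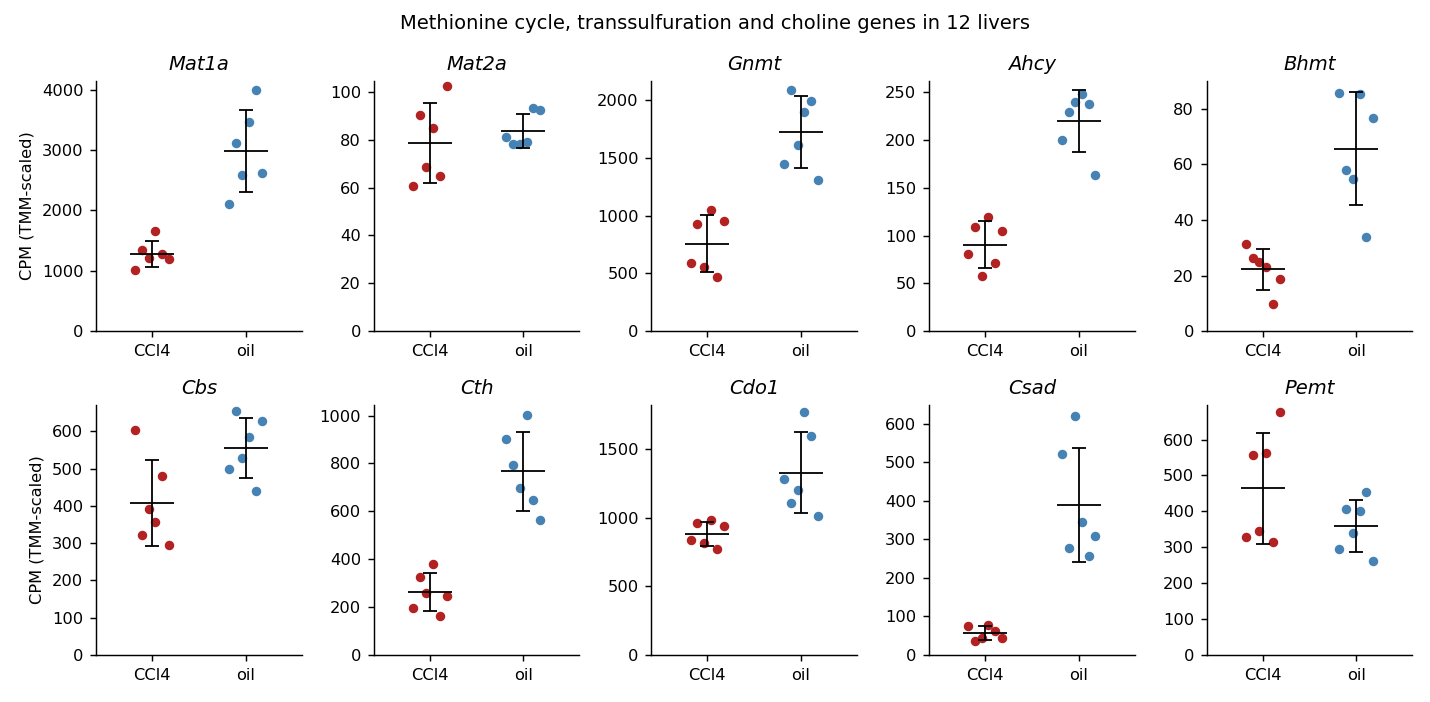
Level of each of the 10 genes in CPM (TMM-scaled, linear axis from 0) in the 6 CCl4 livers (red) and the 6 oil livers (blue), with the mean and SD as a black line and bar. The groups do not overlap for Mat1a, Gnmt, Ahcy, Bhmt, Cth, Cdo1 and Csad, and overlap for Mat2a, Cbs and Pemt.

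The RefSeq promoter table (GRCm38.p6, 250 bases before to 50 after each start) held 7 of the 10 genes. Mat1a, Cth and Cdo1 were not among them. Promoters are shown here for Gnmt, Bhmt and Csad, 3 genes that fell and stand for methyl use, remethylation and taurine synthesis, and for Mat2a, which did not pass. All are on the minus strand and run 5′ to 3′. Capitals mark matches on either strand to the TATA box (TATAAA), the CCAAT box (CCAAT), the GC box (GGGCGG) and the E-box (CACGTG), and base 1 is the first transcribed base.
Gnmt (chr17:46729116-46729415): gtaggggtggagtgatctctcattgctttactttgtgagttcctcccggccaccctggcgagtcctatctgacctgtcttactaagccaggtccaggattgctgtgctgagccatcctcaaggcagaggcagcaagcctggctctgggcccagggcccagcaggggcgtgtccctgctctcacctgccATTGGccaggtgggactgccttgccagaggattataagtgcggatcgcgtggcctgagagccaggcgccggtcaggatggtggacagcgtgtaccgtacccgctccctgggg
Bhmt (chr13:93637709-93638008): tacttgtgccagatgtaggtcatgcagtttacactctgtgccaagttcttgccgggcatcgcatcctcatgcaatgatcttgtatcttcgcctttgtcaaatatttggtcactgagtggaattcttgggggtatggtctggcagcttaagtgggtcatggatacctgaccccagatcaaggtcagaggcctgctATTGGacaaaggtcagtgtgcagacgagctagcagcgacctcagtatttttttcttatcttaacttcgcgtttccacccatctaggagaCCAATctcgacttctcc
Csad, upstream start (chr15:102205003-102205302): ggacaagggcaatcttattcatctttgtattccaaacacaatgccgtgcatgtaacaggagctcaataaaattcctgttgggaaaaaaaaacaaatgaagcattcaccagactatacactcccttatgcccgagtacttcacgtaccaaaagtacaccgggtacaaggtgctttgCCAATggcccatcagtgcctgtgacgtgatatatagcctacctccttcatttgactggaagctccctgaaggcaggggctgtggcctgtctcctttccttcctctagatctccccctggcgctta
Mat2a (chr6:72439507-72439806): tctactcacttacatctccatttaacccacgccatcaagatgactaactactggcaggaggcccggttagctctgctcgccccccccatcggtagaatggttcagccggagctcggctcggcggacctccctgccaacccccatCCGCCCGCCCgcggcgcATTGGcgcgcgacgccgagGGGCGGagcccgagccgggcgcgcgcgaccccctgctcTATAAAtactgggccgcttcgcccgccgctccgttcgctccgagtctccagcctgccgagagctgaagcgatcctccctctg

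Each of these 4 windows held CCAAT on at least 1 strand, as did 37.4% of the 32851 promoters in the table. For Csad this depends on the start shown. Its downstream start (chr15:102188994-102189293, not shown) held no CCAAT and had 1 match, to GGGCGG, at -72 to -67. In Gnmt it spanned bases -62 to -58, in Bhmt -56 to -52 and again 34 to 38, in Csad -75 to -71 and in Mat2a -89 to -85. Only the Mat2a window of these 4 held TATAAA (-32 to -27; 13.6% of all promoters) and GGGCGG (3 matches, of which 2 overlap; 35.7% of all promoters), and none held CACGTG (7.15% of all promoters). The Mat2a window held 34 CG dinucleotides, as many as or more than 93.0% of all promoters, against 11 in Gnmt, 8 in Bhmt, 6 in Csad and a median of 7. These matches describe the letters and were not tied to binding.

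Positions below are those of GRCm38. Synthesis of S-adenosylmethionine in the adult liver rests on Mat1a, the hepatocyte form of methionine adenosyltransferase (gene ID 11720, chromosome 14, 41105012 to 41124428). Mat1a ranged from 1009 to 1667 CPM in the CCl4 livers (median 1245), against 2099 to 3995 CPM in the oil livers (median 2875). The groups did not overlap, and the means of 1284 ± 218 CPM in CCl4 and 2984 ± 685 CPM in oil (SD, n = 6 each) gave a log2 fold change of -1.22 ± 0.17 (SE, adjusted p = 6.96e-05), 2.32-fold lower. Mat2a, the form made by most other cell types and by dividing hepatocytes (gene ID 232087, chromosome 6, 72432796 to 72439556), ranged from 60.6 to 102 CPM in CCl4 (median 76.9) and from 78.1 to 93.3 CPM in oil (median 80.2). The groups overlapped, and the log2 fold change was -0.09, with a 95% interval from -0.39 to 0.21 (adjusted p = 0.63). The sign of the Mat2a value flipped with upper-quartile scaling (0.03). With the length slope as a covariate Mat2a passed as a fall of 0.32 on the log2 scale (adjusted p = 0.0204), and without the 4 libraries of low slope it passed as a fall of 0.34 (adjusted p = 0.0293). Mat2b, the regulatory subunit that binds the MAT2A enzyme, averaged 48.8 ± 16.3 CPM in CCl4 livers, against 37.8 ± 6.31 CPM in oil livers and did not pass (adjusted p = 0.162).

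Set against Mat1a within each liver, Mat2a stood higher in every CCl4 liver. Mat2a itself did not rise (means of 78.7 CPM in CCl4 and 83.7 CPM in oil), while Mat1a fell 2.32-fold. Per base of transcript, Mat2a was at 7.43, 8.36, 7.04, 6.31, 6.23 and 10.6% of Mat1a in CCl4 replicates 1 to 6, and at 4.78, 3.09, 3.73, 2.82, 2.89 and 4.35% in oil replicates 1 to 6. The means were 7.66 ± 1.63% in CCl4 and 3.61 ± 0.819% in oil (SD, n = 6 each), and the ranges did not overlap. A ratio within a library does not depend on scaling, and no test was run on it. Markers of macrophages, stellate cells and dividing cells, which also use Mat2a, were higher in the same CCl4 livers (given with the marker lists), and their part in this ratio was not tested.

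Of the 2 methyltransferases among the 10 genes that spend S-adenosylmethionine, Gnmt fell and Pemt did not pass the test. Gnmt, glycine N-methyltransferase, which disposes of excess methyl groups by making sarcosine (gene ID 14711, chromosome 17, 46725664 to 46729211), ranged from 473 to 1051 CPM in CCl4 (median 760) and from 1310 to 2085 CPM in oil (median 1754). The groups did not overlap, and Gnmt fell 2.27-fold (log2 fold change -1.18 ± 0.21 SE, adjusted p = 0.000577). Within CCl4, replicates 2, 4 and 6, the libraries of low slope, were the high ones, at 930 to 1051 CPM, and replicates 1, 3 and 5 were at 473 to 590 CPM. Without the 4 libraries of low slope the log2 fold change of Gnmt was -1.64 (adjusted p = 3.21e-05).

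Pemt, phosphatidylethanolamine N-methyltransferase (gene ID 18618, chromosome 11, 59970614 to 60046561), was read at 328, 557, 346, 561, 315 and 676 CPM in CCl4 replicates 1 to 6, and at 295, 406, 340, 400, 455 and 263 CPM in oil replicates 1 to 6. The groups overlapped, and the log2 fold change was 0.37, with a 95% interval from -0.09 to 0.82 (adjusted p = 0.183). The 3 high CCl4 values again came from the libraries of low slope. With the slope as a covariate the Pemt value was -0.09 (adjusted p = 0.528), and without the 4 libraries of low slope it was -0.05 (adjusted p = 0.832).

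The transcripts of Pemt and Gnmt are close in length, 1003 and 1035 bases, and their ratio was steady within each group. Per base, Pemt was at 57.4, 61.9, 64.7, 55.1, 68.6 and 73.1% of Gnmt in CCl4 replicates 1 to 6, and at 21.0, 20.1, 21.8, 21.7, 23.5 and 20.7% in oil replicates 1 to 6. The means were 63.5 ± 6.76% in CCl4 and 21.5 ± 1.20% in oil (SD, n = 6 each), with no overlap. This pair was set together after its values were seen, and no test was run on it. Gnmt against Mat1a, whose transcripts differ in length, was at 197 ± 52.3% in CCl4 and 197 ± 28.1% in oil (SD, n = 6 each), and the groups overlapped. Without the 4 libraries of low slope it was at 158 ± 36.5% in CCl4 (SD, n = 3) and 203 ± 26.9% in oil (SD, n = 5), still with overlap. The ratios of Mat2a to Mat1a and of Pemt to Gnmt did not overlap between the groups without those libraries either.

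**Figure D2:**
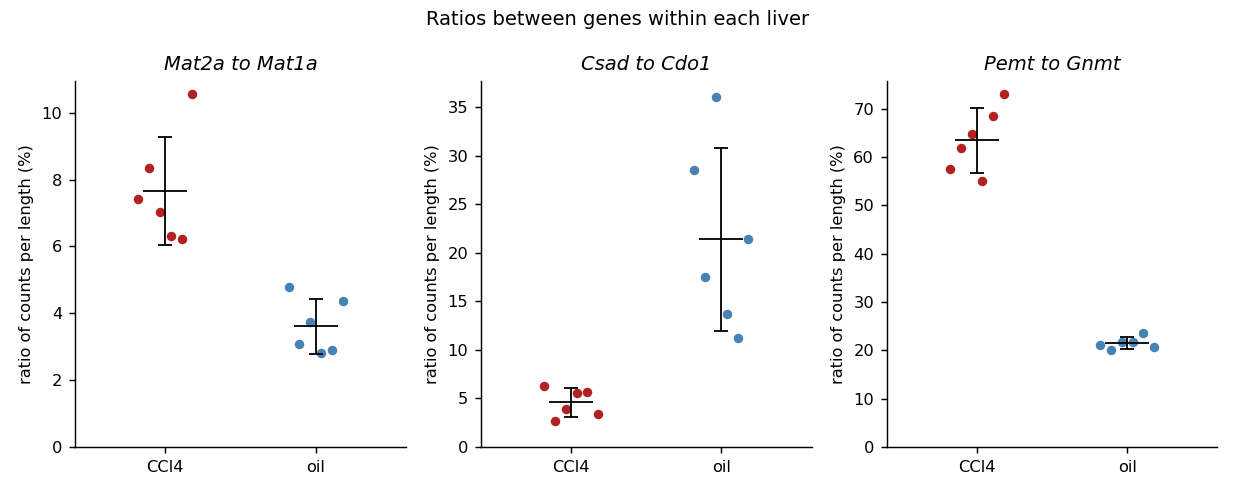
Ratio, within each liver, of counts per base of transcript, in percent, for Mat2a to Mat1a, Csad to Cdo1 and Pemt to Gnmt in the 6 CCl4 livers (red) and the 6 oil livers (blue), with mean and SD in black. Mat2a to Mat1a and Pemt to Gnmt were higher in every CCl4 liver, and Csad to Cdo1 was lower in every CCl4 liver.

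Ahcy, S-adenosylhomocysteine hydrolase (gene ID 269378, chromosome 2, 155059310 to 155074497), ranged from 57.3 to 120 CPM in CCl4 (median 92.6) and from 163 to 248 CPM in oil (median 234). The groups did not overlap, and Ahcy fell 2.43-fold (log2 fold change -1.28 ± 0.18 SE, adjusted p = 8.79e-05). Of the 50-base windows of its transcript, 77.0% also occur in transcripts of other annotated genes, mostly the retrogene Gm4737, which is not analysed here, so its level depends on how the authors counted reads that match several places. The related genes Ahcyl1 and Ahcyl2, whose products act in signalling rather than as hydrolases, also fell, 1.51-fold (adjusted p = 0.00384) and 2.69-fold (adjusted p = 0.00169).

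Of the genes for remethylation of homocysteine, Bhmt and its copy Bhmt2 both fell. Bhmt, betaine-homocysteine methyltransferase (gene ID 12116, chromosome 13, 93616891 to 93637758), was at 31.3, 26.2, 24.9, 22.9, 9.71 and 18.7 CPM in CCl4 replicates 1 to 6, and at 85.4, 58.0, 54.8, 85.3, 33.8 and 76.5 CPM in oil replicates 1 to 6. Every CCl4 liver lay below every oil liver, with a margin of only 31.3 against 33.8 CPM, and Bhmt fell 2.95-fold (log2 fold change -1.56 ± 0.27 SE, adjusted p = 0.000481). Of its 50-base windows 61.5% recur in other annotated transcripts, mostly the retrogene Gm5096, which is not analysed here. Bhmt2, the neighbouring copy on the same chromosome, whose product uses S-methylmethionine as methyl donor, shares only 6.29% of its windows with other genes. Bhmt2 averaged 190 ± 8.53 CPM in CCl4 livers, against 269 ± 35.7 CPM in oil livers (SD, n = 6 each), a fall of 0.50 on the log2 scale (adjusted p = 0.00278).

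In transsulfuration Cth fell and Cbs did not pass the test. Cbs, cystathionine beta-synthase, which commits homocysteine to cysteine (gene ID 12411, chromosome 17, 31612623 to 31637233), was at 603, 323, 392, 357, 481 and 295 CPM in CCl4 replicates 1 to 6, and at 500, 653, 529, 586, 440 and 628 CPM in oil replicates 1 to 6. The groups overlapped, since CCl4 replicates 1 and 5 lay within the range of the oil livers. The log2 fold change was -0.44 ± 0.18 SE, with a 95% interval from -0.82 to -0.07 that holds for this gene alone, and adjusted over all genes it did not pass (adjusted p = 0.0591). Cbs did pass when any one of CCl4 replicates 1 and 5 and oil replicates 1 and 5 was left out (adjusted p from 0.00694 to 0.0459). It also passed by 2 other tools, DESeq2 (adjusted p = 0.0253) and limma-voom, where the adjusted p was 0.00353. The value was nearer 0 with the length slope as a covariate, at -0.20 (adjusted p = 0.213), and without the 4 libraries of low slope it was -0.24 (adjusted p = 0.269).

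Cth, cystathionine gamma-lyase, which releases cysteine (gene ID 107869, chromosome 3, 157894248 to 157925081), ranged from 164 to 380 CPM in CCl4 (median 254) and from 564 to 1003 CPM in oil (median 744). The groups did not overlap, and Cth fell 2.93-fold (log2 fold change -1.55 ± 0.21 SE, adjusted p = 6.05e-05). Without the 4 libraries of low slope the log2 fold change was -1.94. The difference between the falls of Cth and Cbs was not tested. Per base, Cth was at 243 ± 111% of Cbs in CCl4 and 481 ± 115% in oil (SD, n = 6 each), and the groups overlapped through CCl4 replicates 2 and 4, which were of low slope. Without the 4 libraries of low slope the ratio was at 110 to 227% in CCl4 (n = 3) and 308 to 619% in oil (n = 5), with no overlap.

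In taurine synthesis both Cdo1 and Csad fell. Cdo1, cysteine dioxygenase, which oxidises cysteine to cysteine sulfinate (gene ID 12583, chromosome 18, 46713193 to 46728502), ranged from 770 to 983 CPM in CCl4 (median 888) and from 1010 to 1774 CPM in oil (median 1242). The groups lay side by side without overlap, and Cdo1 fell 1.503-fold (log2 fold change -0.59 ± 0.15 SE, adjusted p = 0.00645). Csad, cysteine sulfinate decarboxylase, which turns that product into hypotaurine (gene ID 246277, chromosome 15, 102176997 to 102205052), was at 75.5, 36.7, 45.1, 78.8, 62.1 and 45.2 CPM in CCl4 replicates 1 to 6, and at 522, 278, 620, 346, 256 and 309 CPM in oil replicates 1 to 6. The highest CCl4 liver was far under the lowest oil liver, and Csad fell 6.79-fold (log2 fold change -2.76 ± 0.27 SE, adjusted p = 3.87e-06). This was the lowest log2 fold change of the 10 genes, and 107 of the 16032 tested genes had a value as low or lower.

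Per base, Csad was at 2.67 to 6.30% of Cdo1 in CCl4 (mean 4.58 ± 1.47%, SD, n = 6) and at 11.3 to 36.1% in oil (mean 21.4 ± 9.41%, SD, n = 6), with no overlap. The fall of Csad remained between 2.50 and 2.88 on the log2 scale in all alternatives run. Csad shares 1476 bases of its span with Zfp740 on the opposite strand, a zinc finger gene, and whether counting used strand is not stated. Other genes of the pathway also overlap annotated genes. On the opposite strand, Gnmt shares 3505 bases with Gm26904, Bhmt 3252 with Gm15622, Mat2a 508 with Particl and Ahcy 317 with Gm45609. Cth shares 2231 bases with Gm43314 on the same strand, where counting by strand would not separate them. The part of these overlaps in the levels was not tested. Profiles were compared over the 12 libraries as log2 CPM centred on each gene's own mean. The mean level thus drops out, but the size of the differences between libraries counts. Genes near Csad therefore have a fold change close to its own by the way they were picked. Among 11437 other genes those nearest to Csad were Cyp2a5 (Euclidean distance 1.07), Acsl1 (1.10) and Aifm3 (1.35). Cyp2a5, a P450 enzyme with close copies that may share reads, averaged 59.2 ± 19.2 CPM in CCl4 livers, against 391 ± 105 CPM in oil livers. Acsl1, which activates fatty acids, averaged 235 ± 65.8 CPM in CCl4 livers, against 1239 ± 257 CPM in oil livers (SD, n = 6 each).

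**Figure D3:**
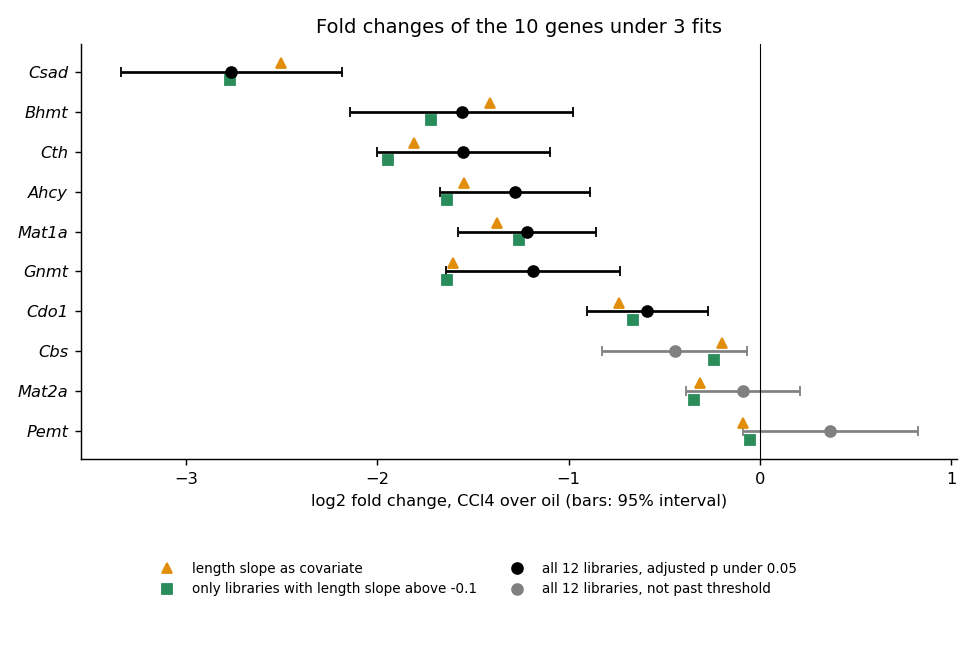
Log2 fold change, CCl4 over oil, of the 10 genes with 95% intervals (circles; black where the adjusted p is under 0.05, grey where not), and the same value with the length slope as a covariate (triangles) and without the 4 libraries of low slope (squares). Csad lies lowest at -2.76, and Pemt, at 0.37, moves to -0.09 and -0.05 under those alternatives.

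The genes that did not pass, Pemt, Cbs and, within the CCl4 group, Mat2a, varied with the length slope across libraries. Pemt is short, at 1003 bases, and its CPM was highest in libraries of low slope in both groups. Cbs has a principal transcript of 6226 bases (the other principal transcript has 2533), and its CPM was lowest in CCl4 replicates 2, 4 and 6 and, among the oil livers, in replicate 5. Mat2a, of 2804 bases, was at 90.5, 85.1 and 102 CPM in CCl4 replicates 2, 4 and 6. In CCl4 replicates 1, 3 and 5 it was at 60.6, 68.7 and 64.7 CPM. Among the oil livers Mat2a was highest in replicate 5 (93.3 CPM), but replicate 6, of the highest slope, was close at 92.4 CPM. Of the 7 genes that fell, all passed with the slope as a covariate (adjusted p of at most 0.00999, for Bhmt) and without the 4 libraries of low slope (adjusted p of at most 0.0122, for Cdo1). Among libraries of low slope there was only 1 oil liver, so no value is given within them.

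**Figure D4:**
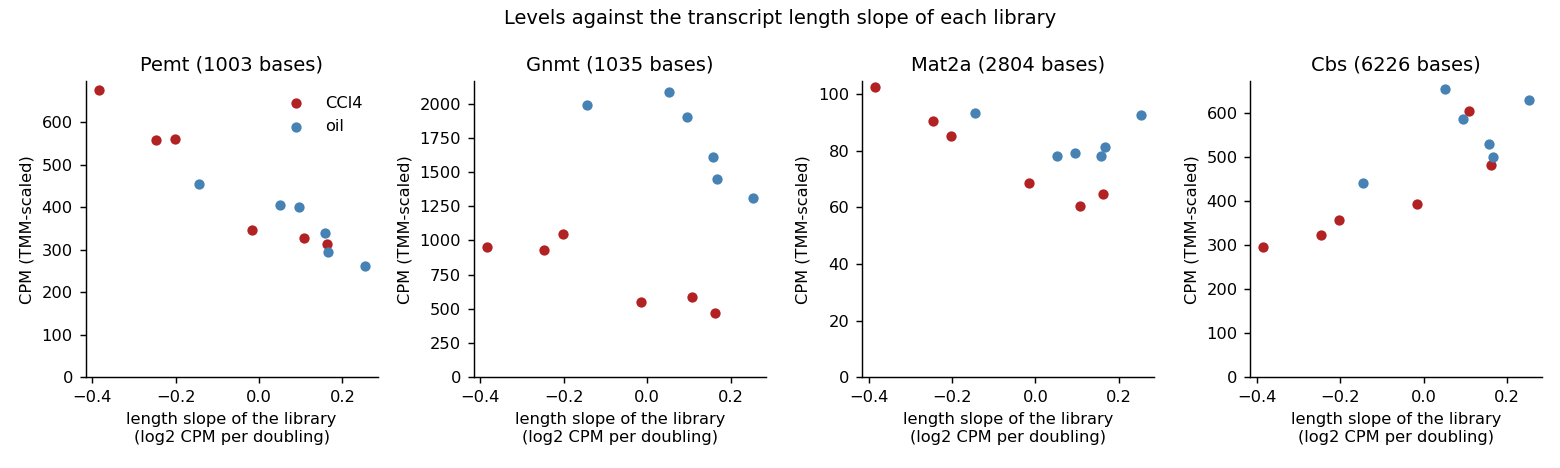
CPM of Pemt, Gnmt, Mat2a and Cbs (linear axes from 0) against the slope of each library's log2 CPM on log2 transcript length, for the 6 CCl4 libraries (red) and the 6 oil libraries (blue). Pemt is highest, at 676 CPM, in the library of lowest slope (-0.38), and Gnmt is lower in every CCl4 library than in any oil library at all slopes.

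Compared per length, as CPM per 1000 bases of transcript, Gnmt had the highest mean in both groups, at 733 ± 239 in CCl4 and 1666 ± 304 in oil (SD, n = 6 each). In oil it was followed by Mat1a and Cdo1 (860 ± 197 and 833 ± 185), whose ranges overlapped, then by Cth (423 ± 90.7) and Pemt (359 ± 73.1), which also overlapped. In CCl4 the order of means after Gnmt was Cdo1 (554 ± 54.9), Pemt (463 ± 153) and Mat1a (370 ± 63.0), each overlapping its neighbour. That order leans on the libraries of low slope. In CCl4 replicates 1, 3 and 5 Pemt was at 327, 345 and 314, and Mat1a at 291, 348 and 370. Gnmt was there at 570, 533 and 457, and Cdo1 at 526, 511 and 483, so Cdo1 exceeded Gnmt in replicate 5. Csad held the sixth place of the 10 in oil, at 171 ± 64.9, and in CCl4 the ninth, at 25.1 ± 7.70, where it overlapped with Mat2a (28.1 ± 5.90). Bhmt was lowest in both, at 8.95 ± 2.97 in CCl4 and 26.4 ± 8.20 in oil, a level that carries the doubt about shared windows given above. Cbs stood at 65.6 ± 18.5 in CCl4 and 89.3 ± 13.1 in oil, or at 161 ± 45.5 and 219 ± 32.1 with its shorter principal transcript. The 10 genes took 0.418 to 0.526% of all counts in the CCl4 libraries and 0.648 to 0.874% in the oil libraries.

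Genes around the pathway were read from 8 lists of 102 genes, of which 98 were tested. Over these lists 45 fell, 16 rose and 37 did not pass, with a median log2 fold change of -0.31. Of all tested genes 18.4% fell and 20.6% rose, and each list count below is to be read beside these shares. The lists were described and not tested as sets. In the rest of the methionine cycle 5 of 9 fell and none rose (median -0.44). Ahcyl1, Ahcyl2 and Bhmt2, described above, were among them, whereas Mtr, the folate-dependent methionine synthase, averaged 7.65 ± 2.48 CPM in CCl4 livers, against 10.3 ± 1.95 CPM in oil livers and did not pass (adjusted p = 0.121).

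Choline oxidation and sarcosine breakdown fell in 6 of 8 genes and rose in 1 (median -0.72). Dmgdh and Sardh, which demethylate dimethylglycine and sarcosine, fell 2.01-fold (adjusted p = 1.62e-05) and 2.61-fold (adjusted p = 9.60e-05). Aldh7a1, which can oxidise betaine aldehyde, fell 1.70-fold (adjusted p = 0.00161). The choline transporter gene Slc44a2 rose 1.51-fold (adjusted p = 0.00304). In the list for phosphatidylcholine synthesis 9 of 15 fell and 1 rose (median -0.65). This list also holds genes that make phosphatidylethanolamine or phosphatidylserine, and of these Pcyt2, Selenoi and Ptdss1 were among the 9. Chpt1, which joins choline to diacylglycerol, was 2.73-fold lower (adjusted p = 0.000114), Gpcpd1, which breaks down glycerophosphocholine, 2.83-fold lower (adjusted p = 1.39e-05) and the choline kinase gene Chkb 1.72-fold lower (adjusted p = 0.000191). Pcyt1b rose 3.27-fold at a low level, with means of 0.370 ± 0.134 CPM in CCl4 livers, against 0.108 ± 0.0821 CPM in oil livers, and was left out by a filter of 50 counts in 6 libraries.

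Of 13 tested genes of cysteine, sulfide and taurine handling 8 fell and none rose (median -0.81). Suox, sulfite oxidase, averaged 68.9 ± 10.4 CPM in CCl4 livers, against 195 ± 24.2 CPM in oil livers (adjusted p = 1.37e-06). Mpst, a sulfurtransferase, and Got1, an aminotransferase that can act on cysteine, fell 1.98-fold (adjusted p = 7.76e-05) and 2.32-fold (adjusted p = 9.03e-05). Ado, which oxidises cysteamine on another route to hypotaurine, averaged 21.7 ± 3.09 CPM in CCl4 livers, against 18.8 ± 2.58 CPM in oil livers and did not pass (adjusted p = 0.209).

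The folate and glutathione lists split. Of 19 folate genes 9 fell and 5 rose (median 0.14). The 3 with the smallest p all rose and encode mitochondrial enzymes, but 4 other genes of mitochondrial proteins on the list, Shmt2, Gldc, Amt and Slc25a32, fell (log2 fold changes of -0.74, -0.99, -0.85 and -0.49). Mthfd2l and Gcsh, also of mitochondrial proteins, lay above 0 and did not pass (0.51, adjusted p = 0.0502, and 0.29, adjusted p = 0.404). Aldh1l2 averaged 7.28 ± 2.27 CPM in CCl4 livers, against 0.390 ± 0.108 CPM in oil livers (log2 fold change 4.23 ± 0.26 SE, adjusted p = 1.32e-07), Mthfd1l rose 4.51-fold (adjusted p = 2.30e-05) and Mthfd2 3.02-fold (adjusted p = 3.34e-05). Aldh1l1 and Mthfd1, the cytosolic counterparts of the 3 that rose, fell. Aldh1l1 averaged 635 ± 132 CPM in CCl4 livers, against 1641 ± 420 CPM in oil livers (adjusted p = 8.18e-05), and Mthfd1 fell 1.84-fold (adjusted p = 0.000194). Per base, Aldh1l2 was still at only 0.825 ± 0.344% of Aldh1l1 in CCl4, against 0.0183 ± 0.00859% in oil (SD, n = 6 each). Shmt2, Gldc, Amt, Slc25a32, Mthfd2l, Gcsh, Aldh1l1 and Mthfd1 were picked after their values were seen.

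Of 9 tested glutathione genes 5 rose and 3 fell (median 0.66). Slc7a11, which brings cystine into the cell, was at 11.9 to 30.8 CPM in CCl4 (median 15.2) and at 0.0468 to 1.22 CPM in oil (median 0.135), with no overlap (log2 fold change 5.76 ± 0.63 SE, adjusted p = 1.02e-05). Without oil replicate 1, the highest oil liver, its log2 fold change was 6.85. Its partner Slc3a2 rose 2.38-fold (adjusted p = 5.65e-06). Gclc, the catalytic subunit of the first step of glutathione synthesis, fell 2.23-fold (adjusted p = 0.000103), while Gss, of the second step, chosen after its values were seen, rose 2.62-fold (adjusted p = 0.000138). Without the 4 libraries of low slope 3 of the 9 rose.

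Of 12 other methyltransferases 4 fell and none rose (median -0.10), and 2 fell when CCl4 replicate 2, 4 or 6 or oil replicate 6 was left out. Inmt fell 2.18-fold (adjusted p = 0.0279), but not past the threshold without CCl4 replicate 3 (adjusted p = 0.0598), and by 1.99 on the log2 scale without the 4 libraries of low slope. Dnmt3b fell 1.504-fold (adjusted p = 0.0295). That call was lost when any one of CCl4 replicates 2, 4 and 6 and oil replicates 2 and 6 was left out (adjusted p from 0.0522 to 0.0624), and without the 4 libraries of low slope (adjusted p = 0.192). Nnmt, which methylates nicotinamide and competes for S-adenosylmethionine, averaged 210 ± 124 CPM in CCl4 livers, against 190 ± 77.1 CPM in oil livers (adjusted p = 0.777). The sign of the Nnmt difference turned without CCl4 replicate 6, to -0.15, and without the 4 libraries of low slope, to -0.55 (adjusted p = 0.0454). Of 13 tested genes of polyamine and methionine salvage 4 rose and 1 fell (median 0.33), with 7 risen without oil replicate 5 and 2 without oil replicate 2 or 4. Smox, spermine oxidase, rose 3.67-fold (adjusted p = 8.33e-07) and Enoph1 1.55-fold (adjusted p = 0.00245), while Adi1 fell 1.70-fold (adjusted p = 6.76e-05). Enoph1 and Adi1 encode consecutive enzymes of methionine salvage.

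**Figure D5:**
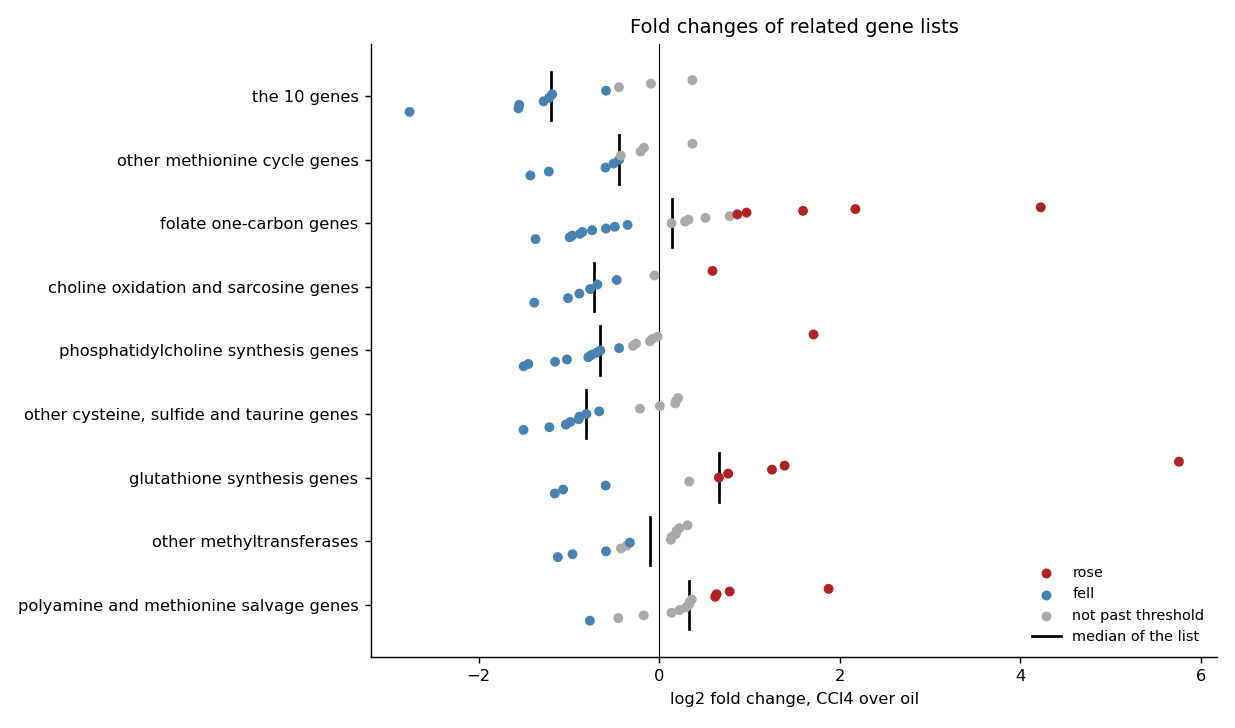
Log2 fold change, CCl4 over oil, of each tested gene of the 10 and of the 8 related lists, coloured by call (red rose, blue fell, grey did not pass an adjusted p of 0.05), with the median of each list as a black bar. The medians lie below 0 except those of the folate, glutathione and polyamine lists, and Slc7a11 (5.76) and Aldh1l2 (4.23) lie farthest right.

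Transcripts of marker genes for other cell types, and for zones of hepatocytes, were summed in the same libraries. Transcripts of 10 secreted hepatocyte proteins, which check the labelled tissue, summed to 133444 to 187044 CPM in CCl4 and 123456 to 173682 CPM in oil, with 1 risen, 2 fallen and 7 that did not pass. All 10 pericentral hepatocyte markers fell, with sums of 895 to 1694 CPM in CCl4 and 8479 to 10251 CPM in oil. Periportal markers fell in 5 of 10 and rose in 2, with sums of 7245 to 9058 CPM in CCl4 and 9269 to 13834 CPM in oil. Macrophage markers rose in 7 of 8 (533 to 1012 CPM in CCl4, 220 to 327 CPM in oil), stellate and myofibroblast markers in 8 of 8 (498 to 795 CPM in CCl4, 63.5 to 152 CPM in oil) and dividing-cell markers in 8 of 8 (74.6 to 124 CPM in CCl4, 17.9 to 27.3 CPM in oil). Endothelial markers rose in 3 of 8 and fell in 1, cholangiocyte markers rose in 3 of 7 tested, and lymphocyte markers rose in 3 of 8 and fell in 1. Skeletal muscle markers reached 241 CPM in 1 CCl4 library, with a CCl4 median of 0.993 CPM and at most 1.43 CPM in oil. Pancreas markers reached 273 CPM in CCl4 and 49.7 CPM in oil, and adipose markers 3.21 CPM in CCl4 and 3.82 CPM in oil, with Lep at 0 in all. The part of these shifts in the falls of the 10 genes was not tested.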

How the data were processed

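The authors deposited raw counts per gene, whole numbers without normalisation, for 12 libraries, and all 12 columns of the series table equalled the sample files. Per the labels' protocols, libraries came from a stranded total RNA kit, and per the submitters' processing notes the build was GRCm38. Aligner, counting tool and annotation: not given in the sources used here. Names and positions came from RefSeq for GRCm38.p6 (31049 of 36528 IDs) and transcript lengths from GENCODE M21 (13885 of 16032 tested genes, longest principal transcript). The mice of a group were the replicates, and replicate numbers only name them. No pair of libraries in a group looked like a repeat deposit, since the smallest chi-square per gene was 49.4.

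The test was edgeR's robust quasi-likelihood test (version 4.0.16, under R 4.3.3) after filterByExpr and TMM, and p-values were adjusted by Benjamini-Hochberg over all tested genes, with a threshold of 0.05. The standard error was the size of the log2 fold change divided by the square root of F. Counts give precision for counting error only. Bhmt at 733 of 66687592 reads had a 95% Wilson interval of 10.2 to 11.8 CPM before TMM, and PCR copies of a molecule cannot be told from separate molecules. Other tools tried were DESeq2 1.42.0 and limma-voom 3.58.1 with quality weights. Other scalings were upper quartile, DESeq2's size factors, and TMM without mitochondrial and the 20 largest genes. Dropping the filter, asking for 50 counts in 6 libraries, adding the length slope as covariate and omitting each library in turn were also run. Leaving out the libraries with a slope below -0.1 was added after the data were seen. On simulated counts for 6 against 6 libraries (15859 genes), 52 of 100 genes changed 2-fold, 3 of 99 changed 1.5-fold and 2 of 15660 unchanged genes were called. Only 200 genes were set to change there, whereas 39.0% of tested genes were called in the data, and no length slope was simulated. These shares therefore do not give the power or error rate of the test in the data.

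The genes and lists were chosen with earlier results of these data known. The named genes were the 10, of each list the 3 called genes with the smallest p and the called gene with the smallest p against the list's majority, and Mat2b, Bhmt2 and Nnmt. Not every gene that this rule names is reported here. Others are said to be chosen after their values were seen, or are named as members of a count. Of 205 listed genes 2 had no matching ID.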

Additional observations from a re-analysis of the deposited data

Results flagged for a closer look

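Of 76 sets of 6 livers checked (38 named genes in each group), 4 held a liver far from its group, where chance would give about 1 in 20. All 4 were oil livers. Slc7a11 was at 1.22 CPM in oil replicate 1, with the next oil liver at 0.324 CPM. Slc44a2 was at 6.37 CPM in oil replicate 5, with the next at 8.71 CPM. Mpst was at 130 CPM in oil replicate 2, with the next at 102 CPM. Nnmt was at 337 CPM in oil replicate 5, with the next at 196 CPM. None of the 10 enzymes of the pathway had such a liver in either group.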

How the results depend on the processing

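Among the 10 genes, the number that fell was 7 or 8 and the number that rose 0, both when each library was left out and under the other alternatives. Over the 8 lists 41 to 47 fell and 13 to 20 rose when each library was left out, and 39 to 51 fell and 15 to 21 rose under the other alternatives. Over all genes 2356 to 3674 fell and 2875 to 4062 rose when each library was left out. Upper-quartile scaling moved the median of all genes to 0.13 and the share of calls that were rises to 67.3%, against 52.8% with TMM. The values that changed sign were Mat2a with upper-quartile scaling (0.031), Pemt with the length slope as a covariate (-0.086) and without the 4 libraries of low slope (-0.050), Mat2b with the slope as a covariate (-0.068), and Nnmt with the slope as a covariate (-0.76, adjusted p = 0.0001), without the 4 libraries of low slope (-0.55) and without CCl4 replicate 6 (-0.15, where leaving out each library gave -0.15 to 0.38). The cause was not tested. With the slope as a covariate 2 of the 12 other methyltransferases rose and 4 of the 13 polyamine and salvage genes fell. Cbs also passed with DESeq2 size factors (adjusted p = 0.0428) and with scaling without mitochondrial and the largest genes (adjusted p = 0.0497). No paired analysis was possible because the labels give no replicate number shared between the groups.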
